A study of Bos taurus with 18 samples.

Results

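The 150 genes described here were selected on the spread of their expression between animals of the same breed, in leukocyte RNA-seq of 3 groups of cattle. Rows of the count table with an Ensembl cattle identifier numbered 27607 of 30162 features, 13677 of them passed a filter on low counts, and 8185 had a mean of at least 10 CPM (counts scaled to a common library size) over 17 libraries. These 8185 rows were ranked by the standard deviation (SD) of log2(CPM + 0.5) between animals, pooled over the breeds, and the top 150 were kept. A last step of the selection would have removed rows whose Red Angus and Droughtmaster ranges did not overlap, and it removed 0 rows. The spread itself therefore chose these genes and is given as a description, with no test.

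The study compared 6 Red Angus, 6 Droughtmaster and 6 F1 animals of the cross Red Angus x Droughtmaster. Every animal was a female labelled with the condition heat stress, so the 18 libraries hold no unstressed group, and the labels give no age, herd, sampling day or parentage. The sample was the leukocyte layer of tail-vein blood, 1 library per named animal, and an animal is called here by its breed and a replicate number that only names it. Droughtmaster replicate 3 was left out of the ranking, because 44.6% of its counts fell on 1 gene that took between 0.0116% and 0.409% in the other 17 libraries. That gene, ENSBTAG00000037644, is one of the 150. Total counts ran from 11639027 to 24117615 in the 17 libraries and came to 16854390 in the one left out, and no pair of libraries was a repeat of the same one (over 153 pairs, chi-square divided by its degrees of freedom was at least 59.8).

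Blood leukocytes are a mixture of neutrophils, eosinophils, monocytes, B cells, T cells, including a large gamma delta T cell population in cattle, and natural killer cells. The make-up of this mixture differs from animal to animal and moves with age, stress hormones and infection. In a bulk sample, fewer cells of a type and less RNA per cell cannot be told apart. Cattle are also known to differ by haplotype in which genes of some immune families they carry, among them the major histocompatibility complex and natural killer receptor families. The count table names genes by identifier alone, and 0 of the 150 identifiers matched a gene symbol in the annotation table at hand. No gene can therefore be assigned to a cell type or pathway here, the leukocyte label was not checked against marker genes, and the genes are described by what their counts did.

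The 150 genes varied between animals of a breed by a median SD of 1.58 on the log2 scale, against a median of 0.554 over all 8185 ranked rows. The largest SD was 3.90. Just inside the threshold stood SDs of 1.356 and 1.355, and just outside it 1.351 and 1.349, so the boundary has no gap. Over the 17 libraries the median gene of the group spanned 5.47 log2 units from its lowest to its highest library, with a range of 3.84 to 10.2 over the group, against a median of 2.00 for all ranked rows. Their mean CPM ran from 10.2 to 2546 with a median of 38.7, close to the median of 39.5 for all ranked rows, and CPM values are not divided by gene length. Both ends of that range were filled: 54 genes had a mean under 20 CPM (36% against 24.5% of ranked rows) and 46 had a mean of at least 100 CPM (30.7% against 21.5%).

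**Figure D1:**
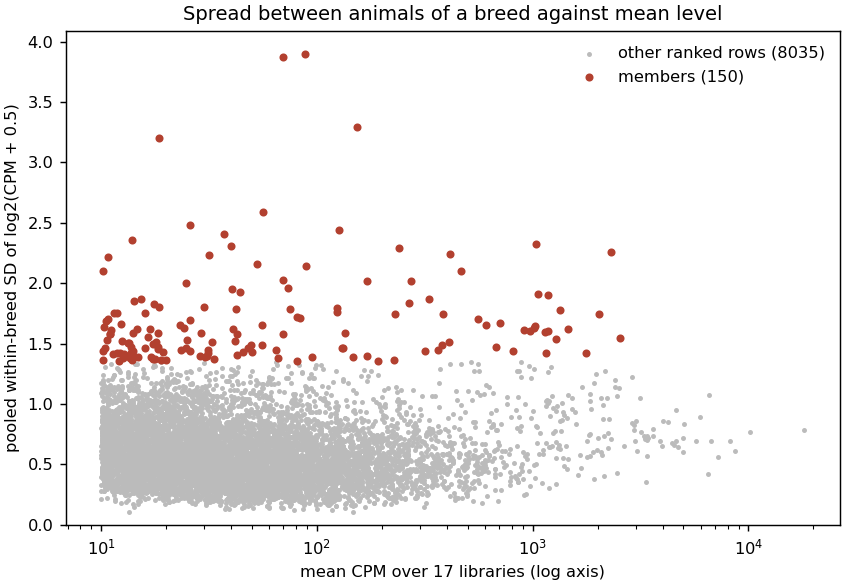
Pooled SD of log2(CPM + 0.5) between animals of a breed (vertical axis) against mean CPM over 17 libraries (horizontal log axis), with 1 point per gene: the 150 genes in red and the other 8035 ranked rows in grey. The 150 lie above an SD of 1.35 by construction and are found from 10.2 to 2546 CPM.

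Low counts were rare behind these values. Of 2550 values (150 genes in 17 libraries), 78 rested on fewer than 10 counts and 17 were 0, with a median of 448 counts. The 17 zeros fell in 8 genes. A level under 1 CPM in some library and of at least 20 CPM in another was found for 42 of the 150 genes. The same was found for 57 of all 8185 ranked rows.

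The spread was present in each breed. The selection used the SD pooled over these same breeds, which favours a wide spread within them, so the values are a description. Within Red Angus the median SD of the 150 genes was 1.69 (n = 6 animals), within the F1 group 1.46 (n = 6), and within Droughtmaster 1.42 (n = 5), against 0.623, 0.461 and 0.487 for all ranked rows. An SD of at least 1 log2 unit was reached in all 3 breeds by 102 genes, in 2 breeds by 42 and in 1 breed by 6. Red Angus had the largest SD for 70 of the 150 (46.7%, against 62.3% of all ranked rows), Droughtmaster for 54 (36% against 26.3%) and the F1 group for 26 (17.3% against 11.4%).

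Single animals seldom made the whole spread of a gene. In 7 of the 150 genes (4.67%, against 1.15% of ranked rows) 1 library held over 50% of the squared deviations, and the median largest share of 1 library was 23.5%, against 24.4% for all ranked rows. Red Angus replicate 5 was the library with the largest share for 23 genes, Droughtmaster replicate 2 for 21, Red Angus replicate 2 and F1 replicate 2 for 20 each, and Droughtmaster replicate 6 for 12. At the other end, F1 replicate 5 had it for 1 gene. F1 replicate 2 had 49 of the 150 genes at least 4-fold below its breed's median and Red Angus replicate 2 had 48, beside 242 and 177 of all 8185 ranked rows. Droughtmaster replicate 2 had 20 genes at least 4-fold above its breed's median, Droughtmaster replicate 6 had 19 and Red Angus replicate 5 had 18, beside 59, 39 and 296 of all ranked rows. Red Angus replicate 5 thus stood apart over the ranked rows as a whole: it held 13.6% of their squared deviations, the highest of the 17 libraries, and 9.03% of those of the 150 genes.

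**Figure D2:**
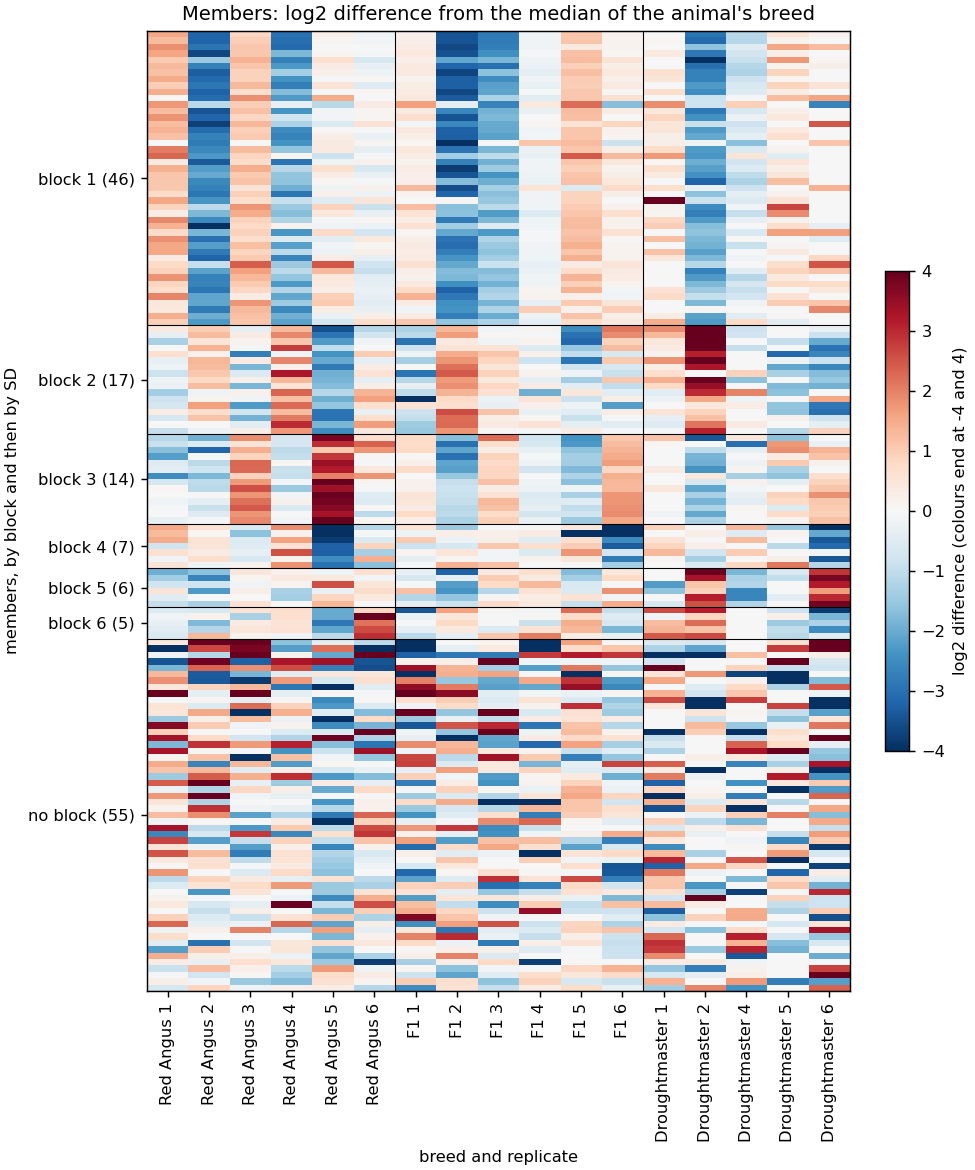
Values of log2(CPM + 0.5) of the 150 genes (rows, ordered by group of co-varying genes) in the 17 ranked libraries (columns, by breed). Colour shows the difference from the median of the animal's breed. The largest group, of 46 genes, is low together in Red Angus replicates 2 and 4, F1 replicates 2 and 3 and Droughtmaster replicate 2, which belong to all 3 breeds.

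The 4 genes of largest SD each stood at a few CPM or less in some animals and far higher in others. They are named here by identifier because of these values. ENSBTAG00000021077 (SD 3.90) stood at 179 and 355 CPM in Red Angus replicates 2 and 3 and at 1.46, 0, 0.717 and 0.248 CPM in Red Angus replicates 1, 4, 5 and 6. In the F1 group ENSBTAG00000021077 stood at 129.99, 137, 398 and 129 CPM in replicates 2, 3, 5 and 6, and at 0.313 and 0 CPM in replicates 1 and 4. In Droughtmaster, ENSBTAG00000021077 stood at 161 CPM in replicate 6 and at 0.887, 0.788, 1.504 and 2.57 CPM in replicates 1, 2, 4 and 5. So 7 of 17 animals held at least 129 CPM, the other 10 held at most 2.57 CPM, both states occurred in every breed, and 5.40 log2 units separated them. Droughtmaster replicate 3, which had no part in the selection, was in the low state at 0.142 CPM.

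ENSBTAG00000038128 (SD 3.87) was high in the same 7 animals, at 78.7 to 225 CPM, and also in Red Angus replicate 5 at 67.8 CPM and in Droughtmaster replicate 5 at 14.5 CPM. The other 8 animals held between 0 and 2.68 CPM of ENSBTAG00000038128, and the left-out library 0.568 CPM. Across the 17 libraries, centred on their breed means, the log2 values of ENSBTAG00000021077 and ENSBTAG00000038128 had r = 0.877 and rho = 0.858. The animals that carried one mostly carried the other, with the 2 exceptions just given.

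ENSBTAG00000040367 (SD 3.30) divided the animals in another way. It was high in Red Angus replicates 3 and 6 at 291 and 294 CPM, in F1 replicates 4, 5 and 6 at 274, 357 and 284 CPM, and in Droughtmaster replicates 4, 5 and 6 at 554, 240 and 283 CPM. Its low animals, 9 in number, held 1.15 to 7.15 CPM of ENSBTAG00000040367, 4.97 log2 units below the high ones. In the left-out library it stood at 210.1 CPM, just under the lowest high animal when all 18 libraries were scaled together (227 CPM).

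ENSBTAG00000009656 (SD 3.20) was detected at a high level in 5 animals: Red Angus replicates 2, 4 and 5 at 80.2, 52.6 and 57.4 CPM, F1 replicate 3 at 39.4 CPM and Droughtmaster replicate 5 at 83.5 CPM. The other 12 animals held between 0 and 0.363 CPM of ENSBTAG00000009656, and the left-out library 0.568 CPM. The 5 high animals are a different set from those of the other genes just named.

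By a rule added after these values had been seen (a gap of at least 2 log2 units between neighbouring libraries, with at least 3 libraries on each side), 11 of the 150 genes had 2 separate levels, as did 13 of all 8185 ranked rows. The gaps ran from 2.05 to 5.53 log2 units with a median of 2.91. Both levels were present in all 3 breeds for 8 of these 11 genes, in 2 breeds for 2 and in 1 breed for 1. In that last case the high level was found in Droughtmaster replicates 2, 5 and 6 alone. Of the 11, 8 belonged to no group of co-varying genes and 3 belonged to the group of 7 genes described further on. In the left-out library 4 of the 11 were at their high level, 2 at their low level and 5 in the gap between. With all 18 libraries scaled together, ENSBTAG00000009656 stood at 0.568 CPM in that library, just above its highest low animal (0.339 CPM). Just under the lowest high animal stood ENSBTAG00000040367 (210 against 227 CPM), ENSBTAG00000027513 (40.6 against 46.8 CPM) and ENSBTAG00000050062 (6.96 against 8.15 CPM). ENSBTAG00000017305, at 162 CPM, lay between 56.2 and 236 CPM. The number of such genes followed the rule: 21 with a gap of 1.5, 7 with a gap of 2.5, and 18 with 2 libraries on each side.

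**Figure D3:**
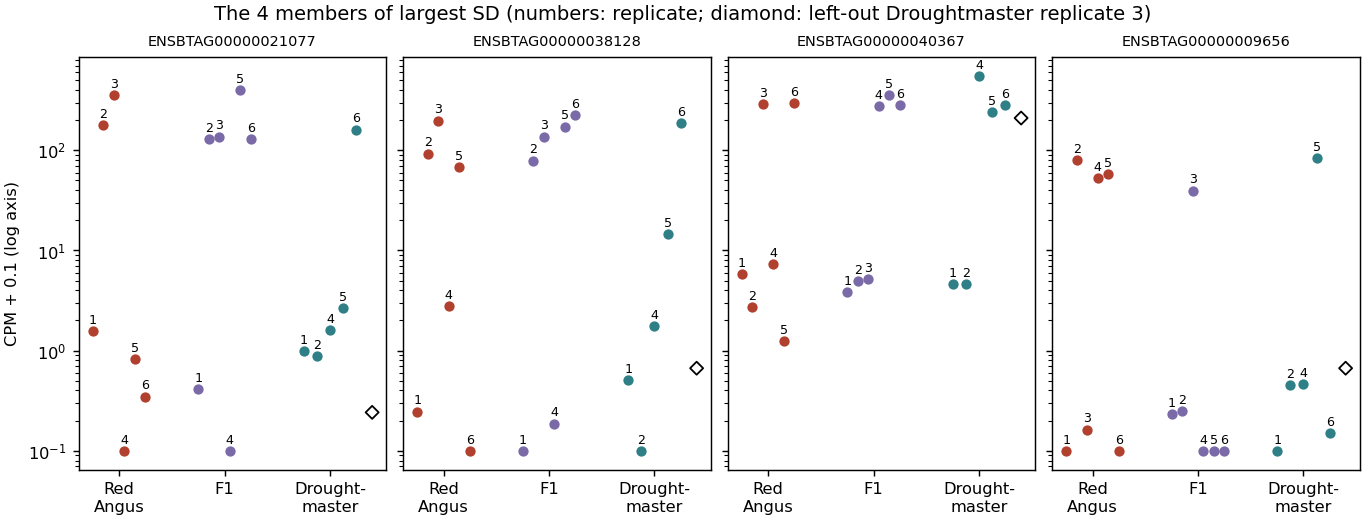
CPM + 0.1 (log axis) in each animal, by breed, for 4 genes with separate high and low levels, with numbers giving the replicate and a diamond marking the left-out Droughtmaster replicate 3. In each of the 4 genes every breed holds animals at both levels; ENSBTAG00000038128 has the narrowest gap, with Droughtmaster replicate 5 at 14.5 CPM.

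Most of the 150 genes did not vary alone. Clustering their breed-centred log2 values (average linkage on 1 minus Pearson's r, tree divided at a distance of 0.5) placed 95 genes in 6 groups of at least 5 and left 55 in none. Pairs with r of at least 0.9 made up 467 of the 11175 pairs of these genes (4.18%, against 1.34% of pairs of ranked rows), and 235 pairs had r of -0.7 or less. Each group was given a score per animal: the mean over its genes of log2(CPM + 0.5) minus the median of the animal's breed, called high from 1 upward and low from -1 downward. The groups were cut from these same values, so neither the groups nor the scores carry a test.

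The first group, of 46 genes, was low in 5 of 17 animals. Its score was -2.63 in Red Angus replicate 2, -1.83 in Red Angus replicate 4, -2.67 in F1 replicate 2, -1.77 in F1 replicate 3 and -2.002 in Droughtmaster replicate 2. In those animals 45, 40, 44, 43 and 38 of the 46 genes were at least 2-fold below the breed's median. It was high in Red Angus replicates 1 and 3 (1.19 and 1.08) and F1 replicate 5 (1.05). The mean pairwise r within the group was 0.838, and 0.793 without the 2 libraries that lay furthest out, Red Angus replicate 2 and F1 replicate 2. The mean CPM of its genes had a median of 60.6 and reached 2546.

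ENSBTAG00000018987 and ENSBTAG00000013264, the genes of largest SD in this group, show the pattern. ENSBTAG00000013264 stood at 3000.5, 2477.5, 1354 and 1142 CPM in Red Angus replicates 1, 3, 5 and 6 and at 134 and 154 CPM in Red Angus replicates 2 and 4. In the F1 group ENSBTAG00000013264 stood at 2164, 1626, 3878 and 1981 CPM in replicates 1, 4, 5 and 6 and at 163 and 255 CPM in replicates 2 and 3. In Droughtmaster, ENSBTAG00000013264 stood at 132 CPM in replicate 2, 517 CPM in replicate 4 and 1225, 1285 and 1151 CPM in replicates 1, 5 and 6. The 5 low animals did not overlap the other 12, and Droughtmaster replicate 4 was the nearest to them.

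ENSBTAG00000018987 followed the same animals at a lower count. It had 5.95 and 7.03 CPM in Red Angus replicates 2 and 4 against 51.7 to 170 CPM in the other Red Angus animals. In the F1 group ENSBTAG00000018987 had 9.55 and 15.4 CPM in replicates 2 and 3 against 98.6 to 237 CPM in the rest, and in Droughtmaster 7.62 CPM in replicate 2 against 28.1 to 87.6 CPM. The log2 values of the pair had r = 0.998 and rho = 0.988 over 17 libraries.

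The pattern of the first group reached well beyond the 150 genes. Of the 8139 ranked rows outside the group, 923 (11.3%) had r of at least 0.8 with its score and 428 (5.26%) had r of -0.8 or less. The number of features with any count moved with the score: r = 0.645 over 17 libraries (rho = 0.478, and r = 0.402 without the 2 libraries furthest out). The 5 low animals had 15790, 15855, 15507, 18217 and 17399 detected features, in the order above, against 16924 to 19605 in the others. The part of this difference in the result was not tested.

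The second group, of 17 genes, ran partly against the first (r between the scores -0.760, rho = -0.723, 17 libraries). It was high in Droughtmaster replicate 2 (2.88), Red Angus replicate 4 (1.65) and F1 replicate 2 (1.59), 3 of the 5 animals in which the first group was low. It was low in Red Angus replicate 5 (-2.20), F1 replicates 1 and 5 (-1.27 and -1.10) and Droughtmaster replicate 6 (-1.30). The mean pairwise r was 0.662, and 0.613 without Droughtmaster replicate 2. The median CPM of its genes ran from 2.19 in Red Angus replicate 5 to 135 in Droughtmaster replicate 2.

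ENSBTAG00000052369 and ENSBTAG00000048608 had the largest SDs here. ENSBTAG00000052369 stood at 10893.9 CPM in Droughtmaster replicate 2 and at 1362, 207, 368 and 306 CPM in Droughtmaster replicates 1, 4, 5 and 6. In Red Angus ENSBTAG00000052369 stood at 424, 641, 251, 805, 28.7 and 146 CPM in replicates 1 to 6, and in the F1 group at 112, 679.9, 249, 295, 47.3 and 1163 CPM. The top value lies in Droughtmaster replicate 2 and the bottom one in Red Angus replicate 5, while the ranges of the 3 breeds overlap. ENSBTAG00000048608 also had its highest value in Droughtmaster replicate 2 (3036 CPM) and its lowest in Red Angus replicate 5 (9.76 CPM). The pair had r = 0.977 and rho = 0.961 over 17 libraries.

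The third group, of 14 genes, was highest in Red Angus replicate 5 (3.28), with Red Angus replicate 3 (1.76) and F1 replicate 6 (1.47) also high. It was low in F1 replicates 2 and 5 (-1.62 and -1.35) and Droughtmaster replicate 2 (-1.48). The mean pairwise r was 0.786, and 0.737 without Red Angus replicate 5. Like the first group it had many followers, with 975 of 8171 other ranked rows (11.9%) at r of at least 0.8. Its score moved with the number of detected features at r = 0.794 (rho = 0.765, and r = 0.720 without the 2 furthest libraries), and Red Angus replicate 5, where the group peaked, had 19096 of them. The second group's score moved the other way with that number, at r = -0.760 (rho = -0.762, and r = -0.761 without the 2 furthest libraries). The part of the detected features in either result was not tested.

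The fourth group, of 7 genes, was carried by 3 animals, 1 in each breed. Its score was -3.77 in Red Angus replicate 5, -2.81 in F1 replicate 6 and -2.50 in Droughtmaster replicate 6, and Red Angus replicate 4 was high at 1.24. The mean pairwise r was 0.689, and 0.419 without Red Angus replicate 5 and F1 replicate 6, so the group rests on these animals. The score moved with the number of detected features at r = -0.682 over 17 libraries (rho = -0.627, and r = -0.573 without the 2 furthest libraries). The 3 low animals had 19096, 18613 and 19605 detected features, and the first and last of these were the highest of the 17 libraries. The part of this in the result was not tested. The third group and the fourth ran against each other (r = -0.732, rho = -0.515, 17 libraries).

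The fifth group, of 6 genes, was high in Droughtmaster replicates 6 and 2 (3.06 and 2.50) and low in Droughtmaster replicate 4 (-1.79), F1 replicate 2 (-1.76) and Red Angus replicate 2 (-1.45). Few other genes followed it: 20 of 8179 ranked rows (0.245%) had r of at least 0.8 with its score. The score moved with the number of detected features at r = 0.625 (rho = 0.679, and r = 0.579 without the 2 furthest libraries, n = 17), with 19605 of them in Droughtmaster replicate 6 and 17399 in Droughtmaster replicate 2, and their part in the result was not tested. The sixth group, of 5 genes, was high in Red Angus replicate 6 (2.86), Droughtmaster replicates 2 and 1 (2.003 and 1.503) and F1 replicate 5 (1.21), and low in Red Angus replicate 5 (-2.002), Droughtmaster replicate 6 (-1.97) and F1 replicate 1 (-1.04). It had 11 followers among 8180 rows (0.134%), and its score had r = -0.487 with the number of detected features (rho = -0.583, and r = -0.572 without the 2 furthest libraries). The mean pairwise r was 0.738 in the fifth group and 0.675 in the sixth.

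**Figure D4:**
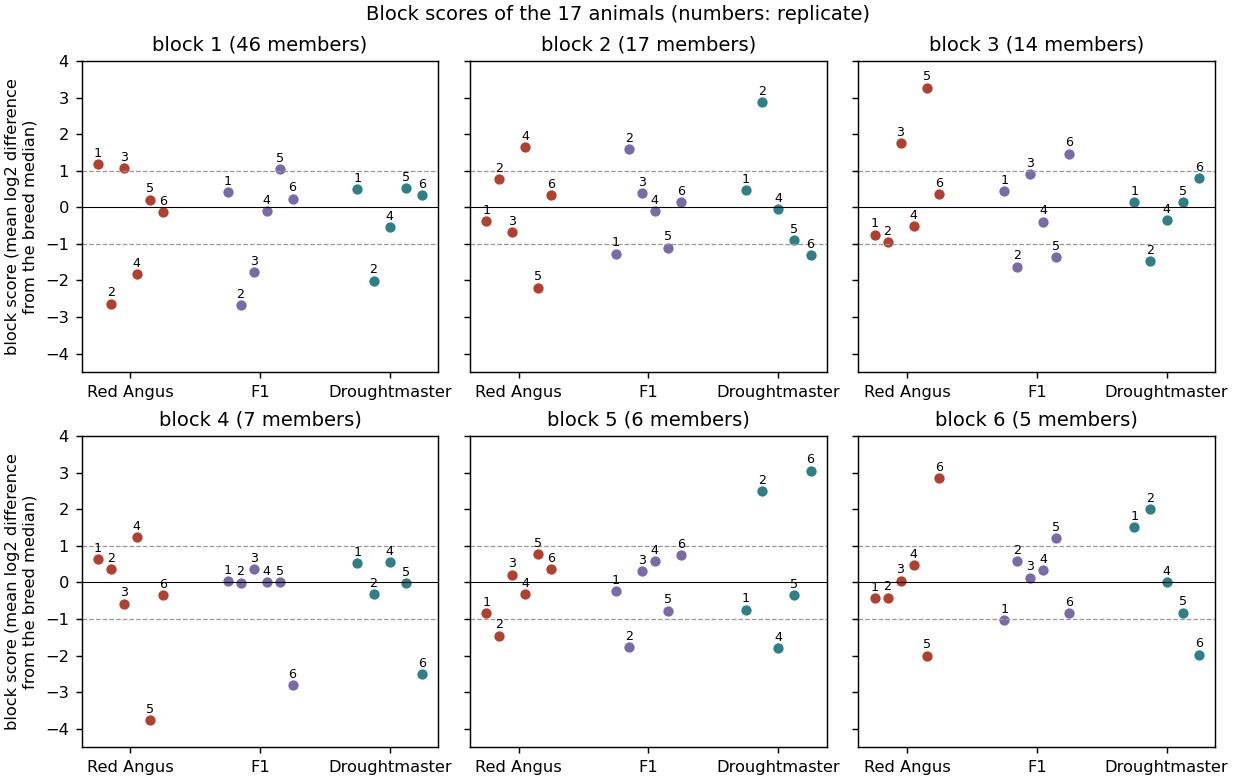
Score of each of the 6 groups of co-varying genes in the 17 ranked animals, in log2 units from the median of the animal's breed, with dashed lines at the thresholds of 1 and -1. Low scores of the first group occur in Red Angus replicates 2 and 4, F1 replicates 2 and 3 and Droughtmaster replicate 2, and those of the fourth group in 1 animal of each breed (-3.77, -2.81 and -2.50).

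The groups differed in how far they depended on single libraries. When each of the 17 libraries was left out of the clustering in turn, and under the other settings tried, between 43 and 46 of the first group's 46 genes and 13 or 14 of the third group's 14 stayed together in 1 group. The second group kept 10 genes together when values were not centred by breed. The fourth group kept 1 of its 7 genes without Red Angus replicate 5, 4 without F1 replicate 6 and 3 under Spearman correlation. The sixth kept 1 of 5 without Red Angus replicate 6. As for the selection itself, 61 of the 150 genes stayed in the list whichever library was left out. They included 25 of the 55 genes in no group, 20 of the first group's 46, and 8 of the 11 genes with 2 separate levels. Leaving out F1 replicate 4 replaced the fewest genes, and Red Angus replicate 5 the most (3 and 24).

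Droughtmaster replicate 3 took no part in the selection and gave a view of these genes in 1 further animal, with no replicate. Both measures below set it against libraries that did make the selection, so they are a description. The median absolute deviation of the 150 genes from the mean of the other 5 Droughtmaster animals was 1.204 log2 units in this library, against 0.408 over all ranked rows, and 91 of the 150 genes were at least 2-fold away against 840 of the 8185 rows. Most stayed inside the range already spanned by the 17 animals. That range was wide by selection (a median of 5.47 log2 units against 2.00 for all ranked rows), so nothing is read from the shares outside it. The left-out library was above all 17 for 14 genes (9.33%, against a background of 6.54%) and below all 17 for 4 genes (2.67%, against 9.8%). The largest departures were 14.6, 10.9 and 9.70 log2 units above the mean of the other 5 Droughtmaster animals, the last for ENSBTAG00000037644. The fifth group stood highest, with a median deviation of 2.59 and 6 of 6 genes at least 2-fold away. The first group's median deviation was 1.162 and the second group's -1.48. In this library 54.7% of counts fell on the 150 genes, against 1.63% to 5.41% in the others, most of it on ENSBTAG00000037644.

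Comparing the breeds asked whether genes this variable between animals also differed in mean level between Red Angus, F1 and Droughtmaster. The test was edgeR's quasi-likelihood test over 14764 features in 17 libraries, with Benjamini-Hochberg adjustment at 0.05. Of the 150 genes, 0 passed between F1 and Red Angus, 7 between F1 and Droughtmaster and 2 between Droughtmaster and Red Angus. Over all 14764 features these counts were 0, 115 and 149. All 150 genes were tested. Their wide spread entered the errors: the median standard error (SE) of their log2 fold changes was between 0.769 and 0.812 in the 3 comparisons, against 0.391 to 0.411 for all features.

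Between F1 and Red Angus, 0 of the 150 genes passed (background 0%), with 9 (6%) at an unadjusted p under 0.05 against a background of 3.17%, and DESeq2 also called 0. The median absolute log2 difference of the 150 was 0.363, against 0.248 over all features.

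Between F1 and Droughtmaster, 7 of the 150 genes passed (edgeR, adjusted p under 0.05), all 7 lower in the F1 group. The background was 0.779% in either direction and 0.616% for lower. At an unadjusted p under 0.05 there were 25 (16.7%), against a background of 11.5%, and DESeq2 called 9 against a background of 3.01%. The selection used mean CPM and spread, which a few high Droughtmaster animals can raise. Among the 7, ENSBTAG00000027513, ENSBTAG00000047904, ENSBTAG00000038042 and ENSBTAG00000021672 met the mean of 10 CPM only through the Droughtmaster animals. Genes selected through such animals would come out lower in F1, so nothing is read from these counts or their direction. Of the 7, 4 belonged to the fifth group of 6 genes, whose score moved with the number of detected features as given above. The count was 0 without F1 replicate 1, F1 replicate 6 or Droughtmaster replicate 6, 1 without F1 replicate 4, F1 replicate 5 or Droughtmaster replicate 2, 2 without F1 replicate 2 or F1 replicate 3, and 3 without Red Angus replicate 6.

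ENSBTAG00000001785, of the fifth group, was at 5.49, 0.301, 8.93, 11.1, 1.77 and 9.53 CPM in F1 replicates 1 to 6 and at 49.3, 768, 13.4, 32.7 and 362 CPM in Droughtmaster replicates 1, 2, 4, 5 and 6. The ranges did not overlap, and Droughtmaster replicates 2 and 6 stood far above the other 3 Droughtmaster animals. Red Angus animals lay between 5.11 and 33.1 CPM. The log2 fold change of ENSBTAG00000001785 from Droughtmaster to F1 was -5.28 ± 0.988 (SE; edgeR adjusted p = 0.0202). It was -4.17 without Droughtmaster replicate 2 (edgeR adjusted p = 0.0678). Over its 21 alternatives the adjusted p ran from 4.31e-06 (DESeq2) to 0.0678 (edgeR), and it was under 0.05 in 16 of them.

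ENSBTAG00000026753, also of the fifth group, was at 1.44 to 9.42 CPM in the 6 F1 animals and at 22.3, 223, 8.97, 10.9 and 319 CPM in Droughtmaster replicates 1, 2, 4, 5 and 6. Here the ranges overlapped, with Droughtmaster replicate 4 under the highest F1 animal. The log2 fold change of ENSBTAG00000026753 was -4.48 ± 0.885 (SE; edgeR adjusted p = 0.0238), and -3.67 without Droughtmaster replicate 6 (edgeR adjusted p = 0.0766). Over 21 alternatives the adjusted p ran from 1.69e-06 (DESeq2) to 0.0766 (edgeR), and it was under 0.05 in 14 of them. In the left-out library ENSBTAG00000001785 stood at 232 CPM and ENSBTAG00000026753 at 236 CPM, both above all F1 and Red Angus animals.

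Between Droughtmaster and Red Angus, 2 of the 150 genes passed (edgeR, adjusted p under 0.05), both higher in Droughtmaster. The background was 1.01% in either direction and 0.65% for higher. At an unadjusted p under 0.05 there were 28 (18.7%), against a background of 15.4%, and DESeq2 called 15 against a background of 5.25%. The selection would have removed genes whose ranges in these 2 breeds did not overlap, and it removed 0. It also used mean CPM and spread, which a few high Droughtmaster animals can raise, so nothing is read from these counts. The edgeR count was 0 without Red Angus replicate 1, 3, 4 or 6 or Droughtmaster replicate 6, and 1 without F1 replicate 1, 3, 4 or 5 or Droughtmaster replicate 2 or 5. It was 4 without Red Angus replicate 2 or Droughtmaster replicate 1, 5 without Droughtmaster replicate 4 and 10 without Red Angus replicate 5.

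ENSBTAG00000021672 and ENSBTAG00000001321 were the 2 genes, and both were also among the 7 lower in F1 than in Droughtmaster, a comparison that shares the Droughtmaster libraries. ENSBTAG00000021672 was at 16.2, 6.92, 55.4, 49.4 and 321 CPM in Droughtmaster replicates 1, 2, 4, 5 and 6, against 2.05 to 17.1 CPM in Red Angus and 1.28 to 13.9 CPM in F1 animals. The ranges overlapped: Droughtmaster replicates 1 and 2 lay within the Red Angus range, and Droughtmaster replicate 2 also within the F1 range. As given above, ENSBTAG00000021672 met the minimum mean CPM of the selection only through the Droughtmaster animals. Nothing is therefore read from its direction or adjusted p in either comparison, and the values are a description. The log2 fold change of ENSBTAG00000021672 was 3.61 ± 0.825 for Droughtmaster minus Red Angus (SE; edgeR adjusted p = 0.0411) and -3.77 ± 0.832 for F1 minus Droughtmaster (edgeR adjusted p = 0.0413). Without Droughtmaster replicate 6 these became 2.09 (edgeR adjusted p = 0.204) and -2.29 (edgeR adjusted p = 0.202), the highest p of 21 alternatives each. Adjusted p was under 0.05 in only 9 and 12 of the 21. With each library left out in turn, it was under 0.05 in 6 and 9 of 17. The lowest were DESeq2 adjusted p = 0.000156 and 5.73e-05.

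ENSBTAG00000001321 was at 48.1, 489, 23.3, 126 and 651 CPM in Droughtmaster replicates 1, 2, 4, 5 and 6, against 11.4 to 46.8 CPM in Red Angus and 3.40 to 35.3 CPM in F1 animals. Droughtmaster replicate 4 lay within the range of both other groups, and replicates 2 and 6 lay far above it. The log2 fold change of ENSBTAG00000001321 was 3.34 ± 0.719 for Droughtmaster minus Red Angus (SE; edgeR adjusted p = 0.0323) and -3.66 ± 0.729 for F1 minus Droughtmaster (edgeR adjusted p = 0.0249). Without Droughtmaster replicate 6 these became 2.65 (edgeR adjusted p = 0.118) and -3.01 (edgeR adjusted p = 0.0871), again the highest p of 21 alternatives each. Adjusted p was under 0.05 in 15 of the 21 for each comparison. With each library left out in turn, it was under 0.05 in 11 of 17 for each. The lowest were DESeq2 adjusted p = 0.000157 and 1.86e-05. In the left-out library ENSBTAG00000021672 stood at 127 CPM and ENSBTAG00000001321 at 187 CPM.

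**Figure D5:**
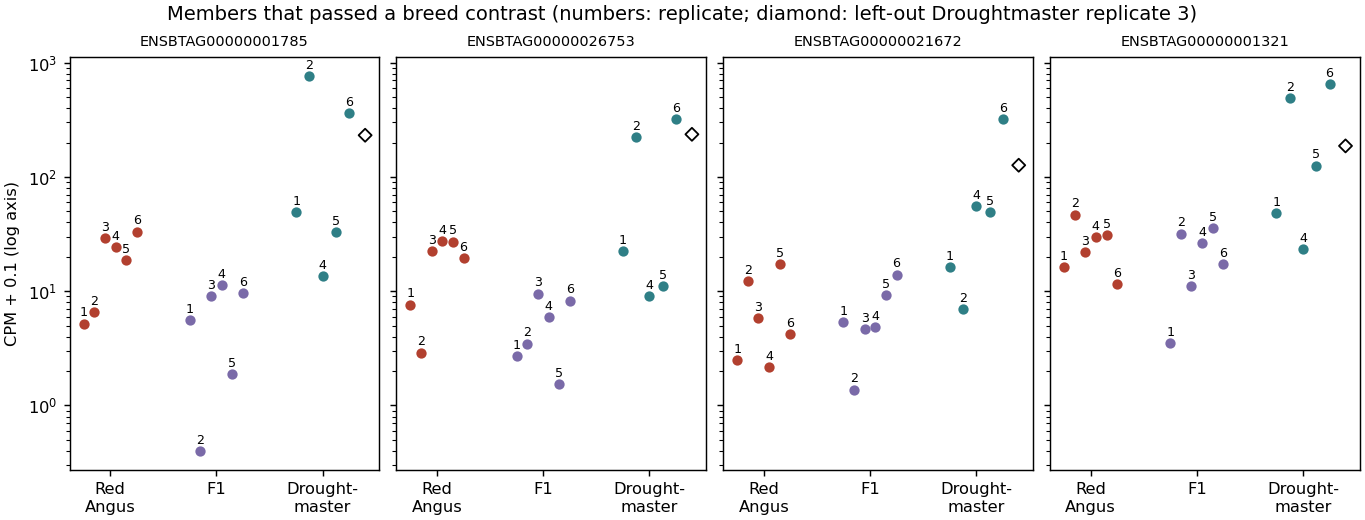
CPM + 0.1 (log axis) per animal, by breed, for 4 genes that passed a breed comparison, with numbers giving the replicate and a diamond marking the left-out Droughtmaster replicate 3. Droughtmaster replicate 6 stands at 319 to 651 CPM in all 4 genes, while in 3 of the 4 at least 1 Droughtmaster animal lies within the F1 range.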

How the data were processed

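Leukocyte mRNA-seq of 18 cows was deposited as 1 table of raw counts per gene for the whole series. The submitters' processing notes name the cattle build ARS-UCD1.2 and the tools featureCounts (version 1.5.0-p3), HISAT2 (version 2.0.5) and DESeq2 (version 1.16.1). For the deposited counts the strand setting is not given in the sources used here, and overlapping genes and near-identical copies may share counts. Breeds came from the labels, which name separate animals. The 150 genes and all lists were chosen with earlier results of these data known.

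Counts were filtered with edgeR 4.0.16 (filterByExpr by breed) and scaled with TMM in R 4.3.3, and Droughtmaster replicate 3 was left out. Clustering used SciPy 1.17.1. Breed comparisons fitted 3 group means to 17 libraries with edgeR's robust quasi-likelihood test, Benjamini-Hochberg adjusted over all 14764 features. DESeq2 1.42.0 was an alternative. The other alternatives were RLE scaling, no filter, all 18 libraries, each library left out, a threshold of 0.01, other selection and clustering settings, and, added after seeing the data, library sizes over all features. The scripts were tested on simulated data.

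The rule for named genes, where no table pairs identifiers with symbols, was the 2 genes of largest SD in each of the 2 largest groups. Every other identifier was chosen after its values were seen. The gene lists and marker lists (interferon, cytokine, heat shock, leukocyte types and others) could not be used, because 0 of 27607 identifiers matched a symbol, and no sequence is printed for the same reason.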

Additional observations from a re-analysis of the deposited data

Results flagged for a closer look

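The scores of the 6 groups of co-varying genes and the CPM of the named genes were examined for a single animal standing apart from its breed by Dixon's criterion. In values not chosen for their spread, chance meets it in about 1 in 20 groups. These genes were selected on their spread, and the groups of genes were cut from the same values, so that rate does not apply and the values below are a description. It was met 6 times in 57 combinations of an item and a breed. The score of the fourth group met it in all 3 breeds: -3.77 in Red Angus replicate 5 (the other Red Angus animals from -0.581 to 1.24), -2.81 in F1 replicate 6 (others -0.00797 to 0.356) and -2.50 in Droughtmaster replicate 6 (others -0.312 to 0.559). ENSBTAG00000021077 met it in Droughtmaster replicate 6, at 161 CPM against 0.788 to 2.57 CPM in the other Droughtmaster animals. ENSBTAG00000009656 met it in F1 replicate 3, at 39.4 CPM against 0 to 0.150 CPM, and in Droughtmaster replicate 5, at 83.5 CPM against 0 to 0.363 CPM. Over all 150 genes it was met in 24 of 450 combinations of a gene and a breed (5.33%).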

How the results depend on the processing

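The count of the 150 genes that passed between Droughtmaster and Red Angus (2 with edgeR) was 1 without the filter on low counts, 15 with DESeq2, 9 with all 18 libraries, 0 at an adjusted p under 0.01 and 0 to 10 when each library was left out in turn. Between F1 and Droughtmaster (7) it was 3 without the filter, 0 at an adjusted p under 0.01 and 0 to 8 with each library left out; DESeq2 gave 9 and all 18 libraries 8. Between F1 and Red Angus it was 0 under every setting run, with 9 genes at an unadjusted p under 0.05 in edgeR. A list of 150 genes selected with a mean of at least 20 CPM shared 96 genes with the one described, since 54 of its genes lie under that mean, and one ranked by the median absolute deviation shared 85, where the cause was not tested. Lists made with RLE scaling, an offset of 2 CPM, a mean of at least 5 CPM or all 18 libraries shared 142, 122, 127 and 119, and those without 1 library 126 to 147. Between 90 and 118 genes fell in groups under all clustering settings (95 as reported). Against the other 5 Droughtmaster animals alone, 49 genes lay outside the range in the left-out library (18 against all 17). No paired analysis was possible because the labels give the breeds no shared replicate numbers. The lowest genes are limited by depth: 27 of the 150 had a library under 10 counts.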
